A study of Mus musculus with 2 samples.

Results

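The 300 strongest EP300 peaks of newborn mouse stomach were chosen by their signal in the optimal peak set, taken in descending order on chromosomes 1 to 19 and X. They are 300 of the 7733 optimal peaks on those chromosomes and fall into 295 separate regions. EP300 was mapped by chromatin immunoprecipitation and sequencing (ChIP-seq) in stomach tissue of strain B6NCrl at postnatal day 0. The 2 libraries form 1 group, with no other tissue, stage or genotype. They are labelled biological replicates 1 and 2, yet 1 biosample and 1 donor label serve both, so their spread may be technical, and sex was not collected. Sequencing depth is unknown, because peaks were deposited and read numbers were not used here.

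EP300 is a histone acetyltransferase and transcriptional co-activator that is brought to promoters and enhancers by DNA-bound factors and acetylates histones there. Promoters of widely expressed genes often carry sites for ETS factors, NRF1 and YY1, which act at the core promoter. Some also carry a palindrome with CGCG at its centre, which the factor BANP is known to bind when it is unmethylated.

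At the summits of these peaks a single 10-base word stood out. Among all 10-base words counted on both strands within 100 bp of each summit, TCTCGCGAGA was present in the most windows, at 105 of 300. The word is its own reverse complement. The 12 strongest peaks that hold its 8-base core CTCGCGAG are shown as 30-base stretches around the copy nearest the summit. They are read 5′ to 3′ on the strand of the gene, on mm10, with the 10-base palindrome in capitals, or the 8-base core alone in Rps19, whose whole copy lies elsewhere in its window.
Wdr77, chr3:105959267-105959296, plus strand: cgctcgcacaTCTCGCGAGAagagatcagc
Psmd5, chr2:34871015-34871044, minus strand: tgagaaaggaTCTCGCGAGActtgacagat
Qrich1, chr9:108517051-108517080, plus strand: acgctccggtTCTCGCGAGAagggccttcg
Ube2d3, chr3:135438314-135438343, plus strand: gccacgaggtTCTCGCGAGAtccgccacct
Rbm39, chr2:156180223-156180252, minus strand: cggggcagttTCTCGCGAGAgcccgtgctt
Mapk14, chr17:28691258-28691287, plus strand: gcgtccctctTCTCGCGAGAtctgccggcc
Mdh2, chr5:135778576-135778605, plus strand: gccgagcctgTCTCGCGAGAtttggctcaa
Rraga, chr4:86575644-86575673, plus strand: ccctcggagtTCTCGCGAGAtgccggcggg
Minos1, chr4:139131038-139131067, minus strand: ggcggccggcTCTCGCGAGActtgccatca
Naa38, chr11:69395737-69395766, plus strand: tgaaataaaaTCTCGCGAGAtctgcagtgg
Tmem18, chr12:30584379-30584408, plus strand: aagtcagaacTCTCGCGAGAagagccaagc
Rps19, chr7:24884555-24884584, plus strand: gtttagccgctCTCGCGAGcactccgaaat

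The strongest peaks with an ETS site (CCGGAAGT), an NRF1 site (GCGCATGC) or a YY1 site (AAGATGGC) are shown in the same way, 2 for each factor, on the strand that reads as spelled here, with the site in capitals. Wdr77, Qrich1 and Rraga appear in both sets, so their summit windows hold the palindrome and a second site. In Wdr77 the end of the printed YY1 stretch overlaps the start of the palindrome stretch.
ETS, Rraga, chr4:86575612-86575641, plus strand: cgatgtcgccaCCGGAAGTgggtggcggca
ETS, Rpl26, chr11:68901559-68901588, plus strand: aacttacagaaCCGGAAGTcgcgtgtagtt
NRF1, Denr, chr5:123907137-123907166, plus strand: tccacgcatggGCGCATGCtcctccctttt
NRF1, Rpl10a, chr17:28328550-28328579, plus strand: gctctatttgaGCGCATGCgcaaagcgctc
YY1, Wdr77, chr3:105959248-105959277, plus strand: ggggcaggagcAAGATGGCcgctcgcacat
YY1, Qrich1, chr9:108517098-108517127, plus strand: gggctgaatgtAAGATGGCgcccagggagc

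The strongest EP300 peak of all lay 361 bp upstream of Cdk12, a kinase that phosphorylates RNA polymerase II during elongation. Its signal was 506 in the optimal set, 251 in replicate 1 and 268 in replicate 2, where it ranked 2 and 1. Its summit window holds no whole copy of the palindrome but 2 copies with 1 base changed, in capitals below, on the plus strand of chromosome 11 outside any exon of a coding gene.
Cdk12, chr11:98202598-98202798, plus strand: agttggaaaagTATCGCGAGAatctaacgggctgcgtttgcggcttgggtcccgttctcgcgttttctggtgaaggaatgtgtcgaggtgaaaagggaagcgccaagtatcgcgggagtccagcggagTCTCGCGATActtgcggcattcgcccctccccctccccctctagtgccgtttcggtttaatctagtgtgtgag

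Next in order were peaks at genes of translation, protein turnover, signalling and mitochondria. Wdr77, which works with the methyltransferase PRMT5, had a signal of 486, with 257 in replicate 1 and 239 in replicate 2. Denr, a factor of translation reinitiation, had 468, with 243 in replicate 1 and 218 in replicate 2. Psmd5, a chaperone of proteasome assembly, had 402, with 191 in replicate 1 and 219 in replicate 2. These 4 peaks held ranks 1 to 6 in both replicate lists. Qrich1, a transcriptional regulator of the unfolded protein response, had 381, Ube2d3, a ubiquitin-conjugating enzyme, had 376, and Rbm39, a splicing factor, had 370.3. Mapk14, the stress kinase p38 alpha, had 362, Mdh2, mitochondrial malate dehydrogenase, had 361, and Rraga, a GTPase of amino acid sensing by mTORC1, had 355.

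The other genes of the 30 strongest peaks were equally mixed in function. RNA processing and translation were represented by Eif4a3, a helicase of the exon junction complex, Ddx20, a helicase of the SMN complex, the splicing factors Cdc40 and Cdc5l, Rps19, a small-subunit ribosomal protein, and Riok2, a kinase of small-subunit maturation. Mitochondrial proteins were represented by Minos1, a component of cristae junctions, Cox11, a copper chaperone of cytochrome oxidase, and Atp5b, the beta subunit of ATP synthase. Further genes were Fubp1, which binds an element upstream of Myc, Ostc, an oligosaccharyltransferase subunit, Ercc6l2, a DNA repair helicase, Naa38, of an N-terminal acetyltransferase, and Tmem18, a transmembrane protein. They also included Mad1l1, of the spindle checkpoint, Taf6, of the general factor TFIID, Ireb2, an iron regulatory protein, Sec23ip, which binds a coat protein of secretory vesicles, and Dync1h1, the dynein heavy chain. The signal of these 30 peaks ranged from 231 to 506, from 96.9 to 257 in replicate 1 and from 112 to 268 in replicate 2. The whole 10-base palindrome lay at 17 of the 30, a copy with 1 base changed at 7 and neither at 6.

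The signal of the 300 strongest peaks ranged from 81.6 to 506, with a median of 120.4 and quartiles of 96.8 and 174. The other 7433 optimal peaks ranged from 7.68 to 81.4, with a median of 29.7. The limit at rank 300 falls in a smooth slope and separates peaks of nearly equal signal. The last 5 inside were nearest to Anp32e (81.9), Sec61b (81.8), Rpl17 (81.7), Cd69 (81.7) and Ptpn4 (81.6). The first 5 outside were nearest to Nprl3 (81.4), Bclaf1 (81.3), Thap1 (81.3), Mrps5 (81.2) and Asb4 (81.2).

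Both replicate lists held nearly all of these peaks at high signal. Each list holds 300000 peaks from the libraries behind the optimal set, so a match is no independent support. A peak with its summit inside was found for 299 of the 300 in replicate 1 and for 298 in replicate 2. Of the other optimal peaks 93.2% were found in replicate 1 and 94.5% in replicate 2. The exceptions, a peak near Cryaa in replicate 1 and those at Rps7 and Arid5b in replicate 2, rest on the matching rule, since all 300 overlapped some peak in each list. The signal was 24.5 to 257 in replicate 1 (median 64.0) and 34.0 to 268 in replicate 2 (median 61.5), against medians of 17.0 and 16.5 for the other optimal peaks. Signal scales differ between lists, so levels are not compared across them. Overlapping peaks can take their value from the same replicate peak, which is so for 10 of the 300 in each list.

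The order of the peaks was similar in the 2 lists. Across the 297 peaks matched in both, Pearson's r of log2 signal was 0.83 and Spearman's rho 0.76. These describe peaks that were selected on pooled signal from the same pair of libraries. Among the first 600 peaks of each list, 289 of the 300 appeared in replicate 1 and 297 in replicate 2. The lowest rank was 1535 in replicate 1, at Sde2, and 523 in replicate 2. The conservative set listed 299 of the 300, all but the weaker of a pair of peaks at Upf3a, against 61.3% of all optimal peaks.

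**Figure D1:**
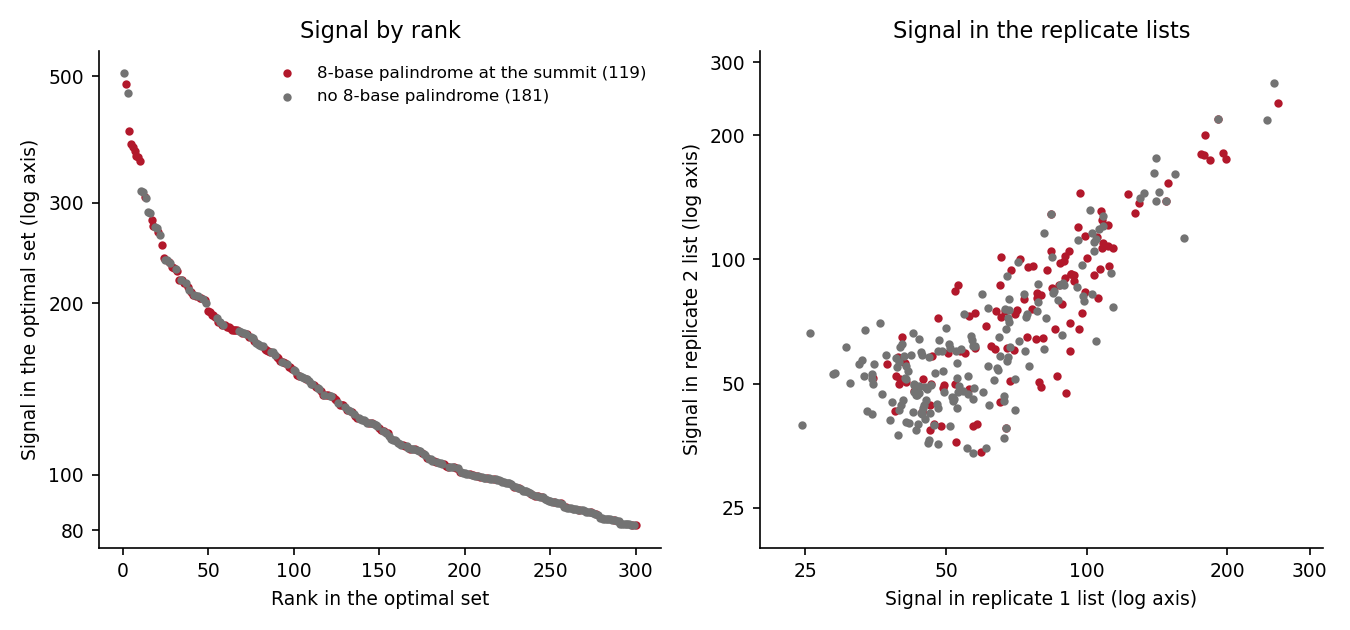
Left, signal in the optimal set (log axis) against rank for the 300 strongest peaks. Right, their signal in the list of replicate 2 against that in replicate 1 (log axes, each list on its own scale), with 297 peaks matched in both. Each point is a peak, and colour marks the 119 with the 8-base palindrome within 100 bp of the summit, which crowd the higher ranks.

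The strongest peaks lay at promoters, close to and mostly just upstream of the start. A summit within 1 kb of a coding start was found for 257 of 300 peaks (85.7%), against 38.2% of all optimal peaks. The exact 95% binomial interval was 81.2 to 89.4% for the 300, and such intervals cover counting error only, since peaks are not independent replicates. Among other optimal peaks the count was 2695 of 7433. The median distance of the promoter peaks to the start was 69 bp (quartiles 28 and 120), and 168 of 257 (65.4%) lay within 100 bp. Other promoter peaks had a median distance of 153 bp, and 971 of 2695 (36.0%) lay within 100 bp. Of the 257 summits, 193 were upstream of the start, 62 downstream and 2 on it.

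By annotation of coding genes, 178 of the 300 summits (59.3%) were intergenic, which includes the bases just upstream of a start, and 81 (27%) lay on UTR exons. Introns held 35 (11.7%) and coding exons 6 (2%). Among the other optimal peaks the shares were 48.6% intergenic, 11.4% on UTR exons, 37.6% in introns and 2.41% on coding exons. The 300 peaks had 290 nearest genes, and 307 coding genes had a start within 1 kb of one of them. A second peak at the same start occurred for Naa38, Psmd5, Psph, Rpl26 and Upf3a. Chromosome 11 held 40 of the 300 peaks (13.3%), against 8.41% of all optimal peaks, and chromosome X held 3 (1%), against 0.905%.

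Coding starts of opposite strands and different genes lay within 1 kb of the summit at 55 of 300 peaks (18.3%, interval 14.1 to 23.2). Whether such starts point away from each other was not checked. The share over all optimal peaks was 5.72%. Among promoter peaks only, the share was 55 of 257 (21.4%, interval 16.5 to 26.9) for the strongest and 387 of 2695 (14.4%, interval 13.1 to 15.7) for the others. The strongest of these pairs were Wdr77 with Atp5f1, a subunit of ATP synthase, then Mdh2 with Styxl1, and Fubp1 with Dnajb4, a chaperone. Median signal was 122 at the 55 peaks with such starts and 125 at the other 202 promoter peaks.

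**Figure D2:**
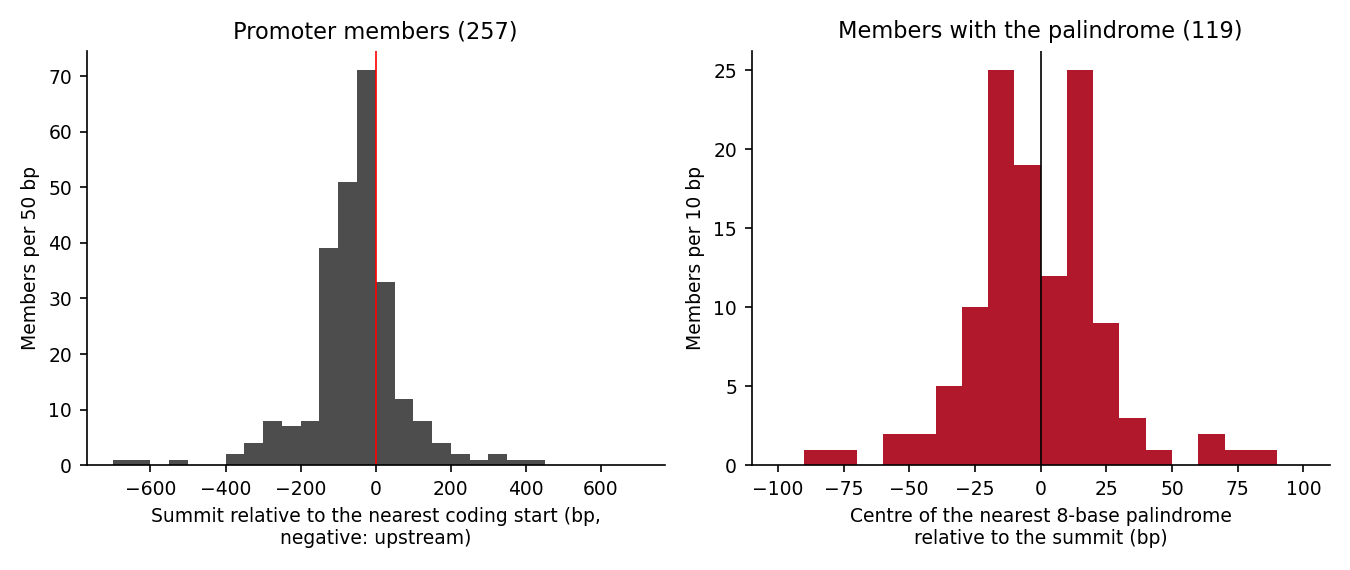
Left, position of the summit relative to the nearest coding start (bp, negative upstream) for the 257 promoter peaks among the 300, counted per 50 bp. Right, position of the 8-base palindrome nearest the summit (bp) for the 119 peaks that hold it, counted per 10 bp. Summits gather just upstream of starts, and palindromes gather within 25 bp of summits.

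Most optimal peaks have the full width of 560 bp, which is also the median of the 300 strongest. Narrower peaks numbered 147 of the 300 (49%, interval 43.2 to 54.8), against 2.03% of all optimal peaks, and only 10 of the 7433 others. The widths of the 147 ran from 140 to 494 bp, with a median of 259 bp. All of the first 50 peaks were narrow, then 44 of the next 50, 30 at ranks 101 to 150, 12 at 151 to 200, 7 at 201 to 250 and 4 at 251 to 300. Narrow width thus followed signal, which chose these peaks, and is given as a description. The narrow peaks had a median signal of 175 and the full-width ones 98.5. In replicate 1 the medians were 88.0 for narrow peaks and 46.6 for full-width peaks, and in replicate 2 they were 86.7 and 50.4 in the same order.

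The CGCG palindrome was the most frequent of the searched motifs at these summits, and it was nearly absent from their flanks. Its core CTCGCGAG was found within 100 bp of the summit at 119 of 300 peaks (39.7%, interval 34.1 to 45.4), against 2.59% of all optimal peaks. Flanks were windows of the same size centred 1000 bp away on the side of higher coordinates, and 0 of 300 held it. On the other side 1 of 300 held it, and at 300 bp 3 of 300. The palindrome was chosen on these peaks, so its counts are a description and no p-value is given for it. In other optimal peaks the core occurred at 81 of 7433 summits (1.09%), and around 207 of 21755 coding starts (0.952%). Here and below, coding starts searched for motifs are 1 per gene record, whereas promoter peaks are defined by any coding transcript start. All 119 lay at promoters, where they were 46.3% of 257 peaks, against 78 of the 2695 other promoter peaks (2.89%). None of the 43 strong peaks beyond 1 kb of a start held it, which at this number allows a share of up to 24.7% for the 13 at 1 to 10 kb and 11.6% for the 30 beyond.

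The palindrome sat close to the summit. Its centre had a median distance of 15 bp from the summit (quartiles 10 and 24), and 92 of the 119 (77.3%) were within 25 bp. In the sequences printed above the distance was 1 bp in Psmd5, 10 bp in Mdh2 and 18 bp in Qrich1, and it was 54 bp in Wdr77 and 75 bp in Ube2d3. A second copy of the core was present in 13 windows, and no window had more than 2.

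Other palindromes of 8 bases around CGCG were rare at these summits. After CTCGCGAG came CGCGCGCG at 7 of 300, GCCGCGGC at 6 and ATCGCGAT at 5. Around coding starts some of these were more frequent than CTCGCGAG. There GCCGCGGC occurred at 627 of 21755 (2.88%), CGCGCGCG at 555 (2.55%), CTCGCGAG at 207 and ATCGCGAT at 10.

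The whole 10-base word TCTCGCGAGA, which contains the 8-base core, was present in 105 windows (35%, interval 29.6 to 40.7). It occurred in 0 flanks, in 38 of the 7433 other peaks (0.511%) and around 118 of 21755 coding starts (0.542%). A further 66 peaks (22%) held only copies with 1 base changed, as in Cdk12, Denr, Fubp1 and Ercc6l2, and 129 (43.0%) held neither. Copies of either kind numbered 2 or more at 36 peaks (12%), against 2 of the 7433 other peaks. The median signal was 154 for the whole word, 132 for changed copies only and 99.6 for neither. In replicate 1 these medians were 78.4, 67.4 and 50.4, and in replicate 2 they were 79.1, 64.9 and 54.9, in the same order. The share of narrow peaks followed the same order, with 72 of 105, 36 of 66 and 39 of 129.

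The share with the palindrome fell along the ranking. The core was at 58% of ranks 1 to 50, 60% of 51 to 100, 44% of 101 to 150, 34% of 151 to 200, 24% of 201 to 250 and 18% of 251 to 300. Beyond the limit it was at 11.7% of ranks 301 to 600, 2.50% of 601 to 1200 and 0.475% of the rest. The word was chosen on the first 300 peaks, so the fall past rank 300 is in part built in. These shares are given as a description. Promoter shares declined more slowly, from 96% in the first 50 to 74% at ranks 251 to 300 and 34.5% after rank 1200.

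**Figure D3:**
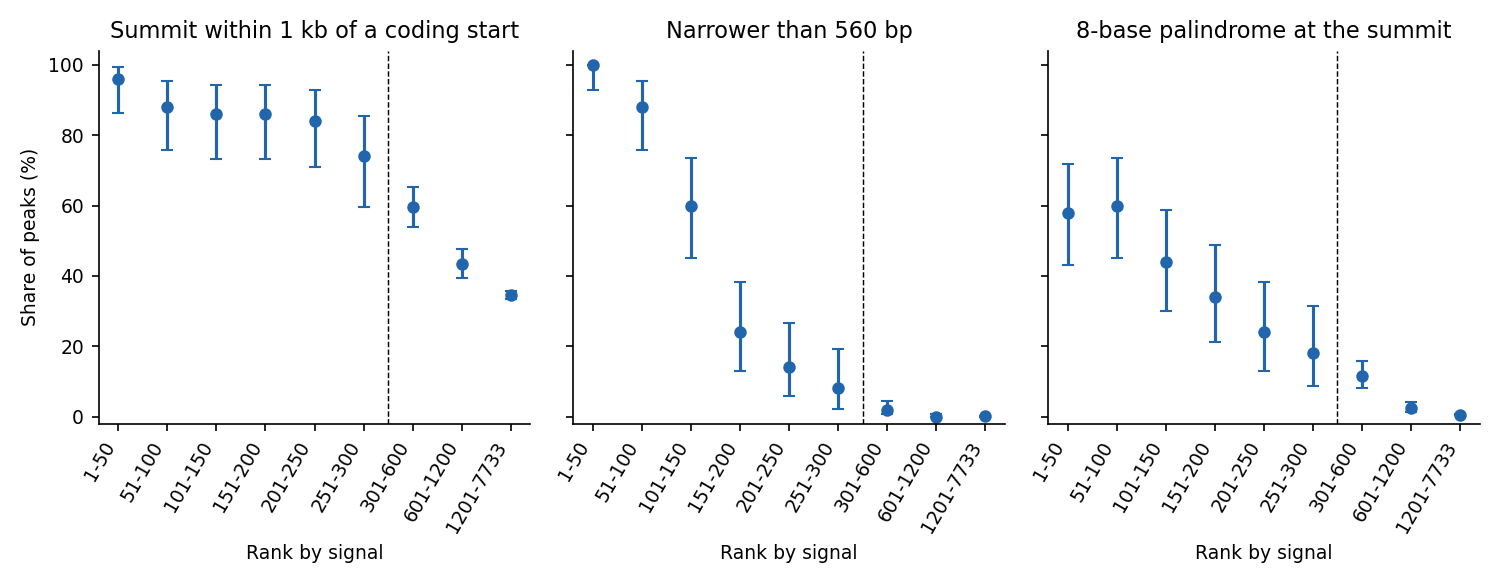
Share of peaks (%) with a summit within 1 kb of a coding start, with a width under 560 bp, and with the 8-base palindrome within 100 bp of the summit, by rank of signal in the optimal set. Points are shares, bars exact 95% binomial intervals, and the dashed line is the limit at rank 300. All 3 shares decline with rank, and width declines most steeply. The palindrome was chosen on the first 300 peaks, so its fall past the dashed line is in part built in.

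Seen from the genes, most coding starts that carry the whole palindrome had one of these peaks. Of the 118 starts with TCTCGCGAGA within 100 bp, 80 had a summit of the 300 strongest peaks within 1 kb (67.8%, interval 58.6 to 76.1) and 108 had a summit of any optimal peak (91.5%, interval 85.0 to 95.9). Of the 21548 starts without the core, 205 had one of the strongest peaks (0.951%) and 2069 any optimal peak (9.60%). Starts with other sites but no palindrome were much closer to that background. Among 941 with the ETS site 14 had one of the strongest peaks (1.49%), among 579 with the NRF1 site 9 (1.55%), and among 599 with the YY1 site 16 (2.67%). For any optimal peak the shares were 23.4% with ETS, 13.5% with NRF1 and 17.9% with YY1.

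**Figure D4:**
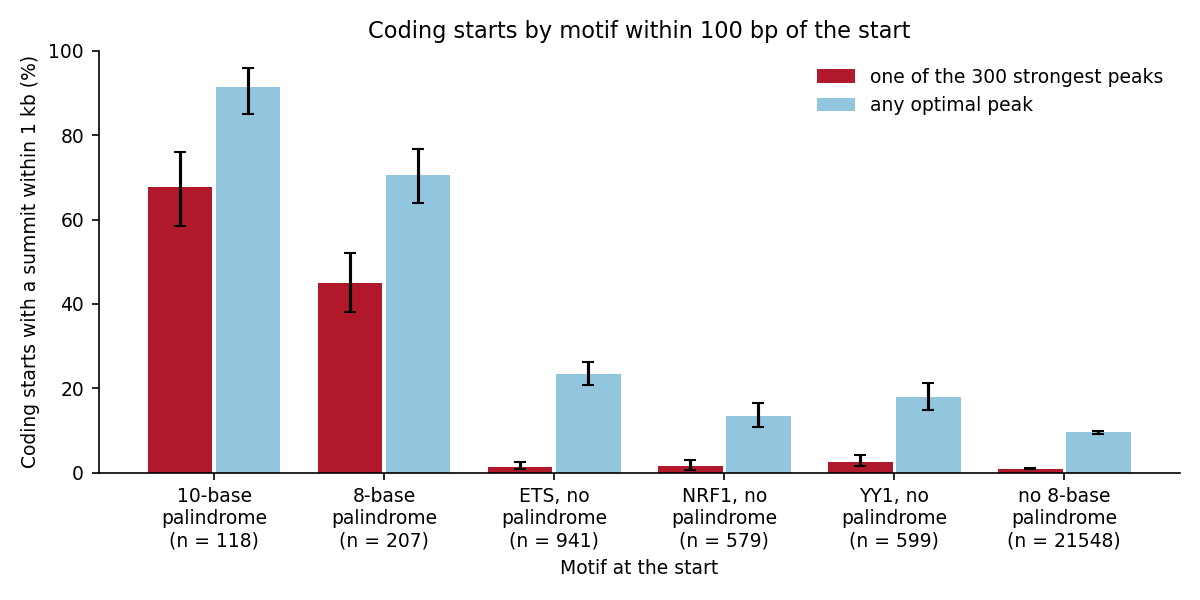
Share of coding starts (%) with a summit within 1 kb, by the motif found within 100 bp of the start, for the 300 strongest peaks and for any optimal peak. Bars are shares with exact 95% binomial intervals, and n is the number of starts, 1 per gene record. Starts with the 10-base palindrome reach 67.8% for the strongest peaks and 91.5% for any peak. Starts with the 8-base palindrome reach 44.9% and 70.5%.

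ETS, YY1, NF-Y and KLF or SP sites were more frequent at summits than in flanks 1000 bp away, while NRF1 did not pass the test. Several of these calls depended on the window or flank. ETS and KLF or SP lost theirs against flanks 300 bp away, YY1 lost its call within 50 bp of the summit (log2 ratio 2.66, adjusted exact p = 0.0602), and NRF1 gained one in 3 alternatives. Each p is from an exact two-sided McNemar test, Benjamini-Hochberg adjusted over 14 motifs, which were chosen with earlier results of these peaks known. The palindrome entered the adjustment and is among the motifs called, though it was chosen on these peaks. Of the 14 motifs, 5 were called higher at the summit in the 300 strongest peaks, against 12 of 14 (85.7%) over all optimal peaks. Sets of unequal size differ in what the test can call, so these counts are not compared. Each motif was searched on both strands.

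ETS factors are a family that binds GGAA cores in many promoters. The site CCGGAAGT occurred at 15 of 300 summits (5%, interval 2.83 to 8.11) and in 2 flanks (adjusted exact p = 0.00658), against 2.41% of all optimal peaks. The share was 5.84% of strong promoter peaks, 5.49% of other promoter peaks and 4.39% of all coding starts, with overlapping intervals for both groups of promoter peaks.

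YY1 is a zinc finger factor of core promoters. The site AAGATGGC occurred at 22 of 300 summits (7.33%, interval 4.65 to 10.9) and in 1 flank (adjusted exact p = 2.67e-05), against 1.88% of all optimal peaks. It was at 8.17% of strong promoter peaks (interval 5.13 to 12.2), 3.53% of other promoter peaks (interval 2.86 to 4.29) and 2.80% of coding starts. Besides Wdr77 and Qrich1, the strongest were Zbtb40, Rps15a and Gdi2.

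NRF1 controls many genes of mitochondrial function. The site GCGCATGC occurred at 8 of 300 summits (2.67%, interval 1.16 to 5.19) and in 1 flank (adjusted exact p = 0.0911), against 0.724% of all optimal peaks. It was at 3.11% of strong promoter peaks, 1.52% of other promoter peaks and 2.73% of coding starts, so the share at strong promoter peaks was near that of all starts. The 8 peaks were at Denr, Rpl10a, Ndufa11, Huwe1, Mak16, Abi1, Cct5 and Slc39a7.

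ETS, NRF1 and YY1 sites lay further from the summit than the palindrome. The median distance was 29 bp for ETS, 47.5 bp for NRF1 and 53.5 bp for YY1. YY1 joined the palindrome in 11 windows, ETS in 7 and NRF1 in 5. None of these 4 motifs was found in 160 of the 300 windows.

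Among the further motifs was AGCCAAT of NF-Y, a promoter factor that binds CCAAT. It was at 27 summits and 3 flanks (9%, adjusted exact p = 2.95e-05), against 4.63% of all optimal peaks. The share was 8.95% of strong promoter peaks (interval 5.76 to 13.1), 6.53% of other promoter peaks (interval 5.63 to 7.53) and 6.62% of coding starts. GGGGCGGG of KLF and SP factors was at 46 summits and 8 flanks (15.3%, adjusted exact p = 2.27e-07), against 6.41% of all optimal peaks. The KLF and SP site was at 17.1% of strong promoter peaks (interval 12.7 to 22.3) and 12.6% of other promoter peaks (interval 11.4 to 13.9). These intervals overlap, and the share of coding starts was 17.9%. The E-box CACGTG was at 12 summits and 4 flanks (4%, adjusted exact p = 0.134), against 4.44% of all optimal peaks.

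AP-1 and CEBP sites, frequent in enhancers, were not called higher at the strongest summits. TGANTCA of AP-1 was at 9 summits and 16 flanks (3%, interval 1.38 to 5.62, adjusted exact p = 0.292), against 12.7% of all optimal peaks, where it was at 980 summits and 439 flanks. TTGCNNAA of CEBP was at 19 summits and 31 flanks (6.33%, adjusted exact p = 0.156), against 11.3% of all optimal peaks, and within 150 bp it was called lower at summits (log2 ratio -0.84, adjusted exact p = 0.0181). These peaks are mostly promoters. Among promoter peaks AP-1 was at 1.95% of the strongest and 4.86% of the others, and CEBP at 5.84% of the strongest and 7.16% of the others. Of the 30 strong peaks beyond 10 kb, AP-1 was at 3 (10%, interval 2.11 to 26.5) and CEBP at 4 (13.3%, interval 3.76 to 30.7). These wide intervals hold the shares of all optimal peaks, a set that includes promoter peaks, and settle no difference. The remaining motifs were CRE (TGACGTCA), ZNF143 and THAP11 (ACTACAAT), TEAD (ACATTCC), GRHL (AACCGGTT) and MEF2 (CTAAAAATA), each at 8 or fewer summits and not called. Base composition moves with these results. GC was 59.0% in summit windows and 46.3% in flanks of the strongest peaks, and its part in the motif counts was not tested. In windows 300 bp away, where GC was also 59.0%, the palindrome core was in 3 flanks, while ETS (log2 ratio 0.87, adjusted exact p = 0.438) and KLF and SP (0.66, adjusted exact p = 0.162) lost theirs.

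**Figure D5:**
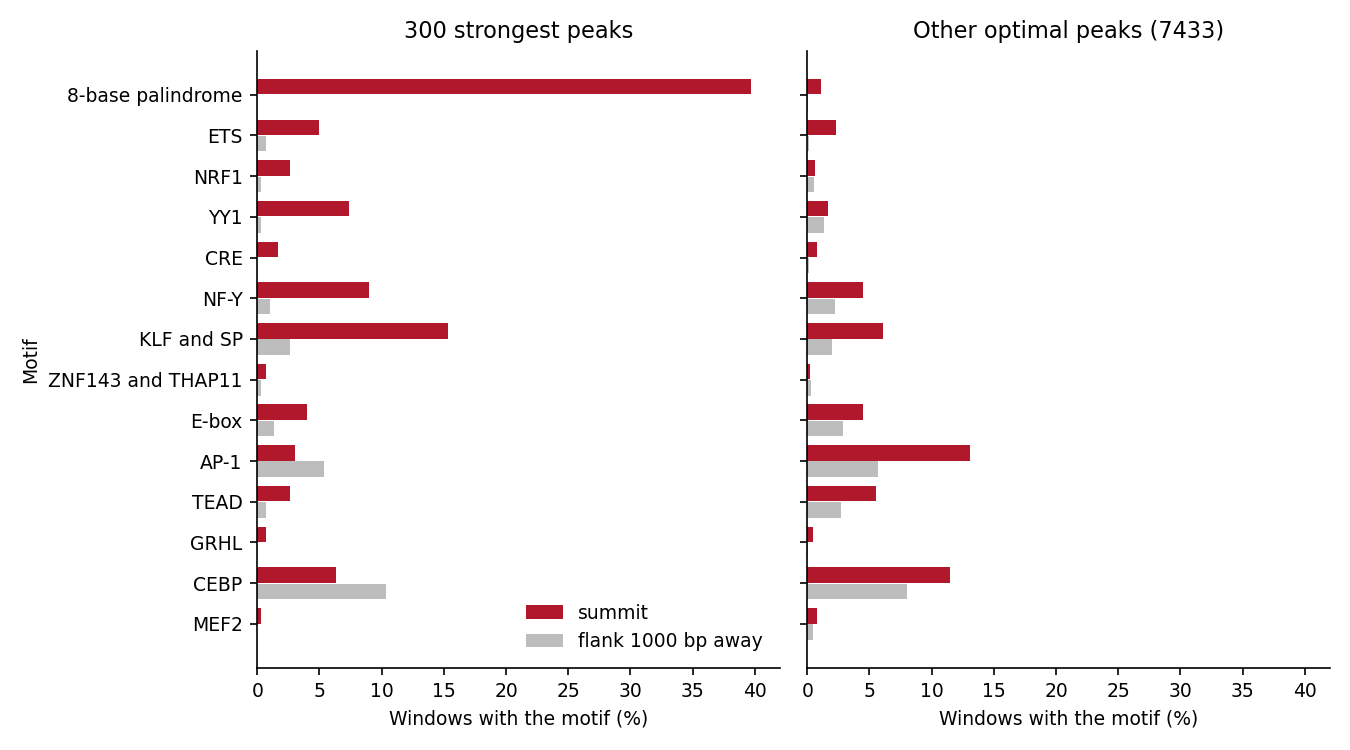
Share of 201-base windows (%) with each of 14 motifs at the summit and in a flank 1000 bp away, for the 300 strongest peaks (left) and the 7433 other optimal peaks (right). The 8-base palindrome reaches 39.7% at the strongest summits and 1.09% at the others, while AP-1 and CEBP sites are more frequent at the others.

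Some strong promoter peaks were poor in GC and held no palindrome. Low GC was no more frequent among all 257 strong promoter peaks than among other promoter peaks. Of the 89 promoter peaks with neither the whole word nor a changed copy, 14 had a GC content under 45% at the summit (15.7%, interval 8.88 to 25). The share was 18 of all 257 strong promoter peaks (7%, interval 4.2 to 10.8) and 299 of 2695 other promoter peaks (11.1%, interval 9.93 to 12.3). Among the 105 with the whole word it was 1, at Zwilch, a kinetochore protein, and among the 63 with changed copies 3, at Nop58, Zfp317 and Rpl23a. The group includes peaks at Ostc, Riok2, Taf6 and Cdc40, all among the 30 strongest, with a GC content of 33.3 to 38.8%. Ostc had a signal of 313, with 141 in replicate 1 and 176 in replicate 2. The window of Ostc lies upstream of the start and outside any exon of a coding gene, part of it is marked as repeat sequence in the reference, and it is printed to show how it differs from that of Cdk12.
Ostc, chr3:130709469-130709669, minus strand: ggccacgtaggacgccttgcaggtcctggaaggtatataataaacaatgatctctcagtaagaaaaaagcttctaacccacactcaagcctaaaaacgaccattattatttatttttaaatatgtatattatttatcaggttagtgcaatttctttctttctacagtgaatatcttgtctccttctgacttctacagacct

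Families of widely expressed genes supplied 49 of the 300 peaks. In 16 families defined by gene symbols they were 16.3% of the strongest peaks, against 662 of 7433 other peaks (8.91%), 382 of 2695 other promoter peaks (14.2%) and 7.05% of coding genes. Within promoter peaks the share was 19.1%. The families were listed with earlier results of these data known, so these shares are descriptions. Over all coding genes, 290 of 21728 (1.33%) were nearest to one of the 300 strongest peaks and 4229 (19.5%) to any optimal peak.

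Cytosolic ribosomal protein genes had the most, with 14 peaks nearest to 13 of 83 genes (15.7%), and 47 of the 83 were nearest to some optimal peak. Rps19 was strongest (signal 267, 129 in replicate 1 and 137 in replicate 2), followed by Rpl26 (220, 83.7 and 129) and Rpl32 (206, 95.9 and 111). The palindrome core was at 6 of the 14. None of the 78 mitochondrial ribosomal protein genes was nearest to a strong peak, and a count of 0 is near the 1.33% of all coding genes. Some optimal peak was nearest to 14 of them (17.9%), against 19.5% of all coding genes.

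Splicing and hnRNP proteins had 5 peaks at 5 of 103 genes (4.85%), with 36 nearest to some optimal peak. All 5 held the palindrome core: Rbm39, Hnrnpk (signal 160.3), which binds poly-C RNA, Rbm15 (135), Rbm26 (132) and Srsf10 (123), an SR protein. RNA polymerase and general transcription genes also had 5, of 111 genes (44 with some optimal peak), led by Taf6 (239), Supt5 (217), an elongation factor, and Polr2e (130), a shared polymerase subunit. Chaperones had 4, of 83 genes (28 with some optimal peak), led by the chaperonin subunit Cct8 (211) and Hspa4 (181), a heat shock protein.

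The other families had 1 to 3 peaks each, at 0.253 to 8.11% of their genes, or none. Protein turnover was represented by 3 proteasome peaks, at Psmd5 (402 and a weaker one of 83.7) and Psmb2 (157), and 3 at ubiquitin-conjugating enzymes, Ube2d3 (376), Ube2d2a (104) and Ube2c (82.0). The respiratory chain had 3, at Atp5b (236), Ndufa11 (175) and Atp5l (110.0). Translation initiation had Eif4a3 (288) and Eif5 (217). The family of cyclins and cell cycle kinases by symbol had Cdk12, Cdc40 and Cdc5l, of which the last pair are known as splicing factors. Vesicle traffic had 3, led by Arf3 (214), and helicases, tRNA synthetases and DNA repair had 1 each, at Ddx20 (271), Dars (138) and Ercc6l2 (306). Of 395 zinc finger genes, 1 was nearest to a strong peak (0.253%), Zfp317 (114), and 85 to some optimal peak. Mitochondrial import had none of 26, and 5 with some optimal peak (19.2%), both near the shares of all coding genes.

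Short lists of stomach cell types were read against the 1.33% of all coding genes nearest to a strong peak, and a count of 0 is near that share. No gene of the 60 on 7 lists (gastric epithelium factors, glandular stomach, smooth muscle, squamous forestomach, endothelium, enteric neurons and glia, blood) was nearest to one of the 300 strongest peaks. In the whole optimal set, 20 of the 60 genes (33.3%) were nearest to a peak, against 19.5% of all coding genes. By list, the counts were 9 of 12 for smooth muscle, 5 of 12 for gastric epithelium factors and 4 of 8 for squamous forestomach. Glandular stomach had 1 of 12, endothelium 1 of 5, enteric neurons and glia 0 of 6 and blood 0 of 5.

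Of the 300 strongest peaks, 43 lay beyond 1 kb of a coding start, with 13 at 1 to 10 kb and 30 beyond 10 kb (10% of the 300, interval 6.85 to 14.0), against 44.7% of all optimal peaks. The 30 distal peaks had a median signal of 103, with 53.4 in replicate 1 and 52.1 in replicate 2, and a median distance of 43748 bp. A start of an annotated non-coding gene lay within 1 kb of 5 of the 43, nearest to Tprg, E030018B13Rik, St6galnac2, Tex14 and Sec31a. That at Tex14 was 86 bp from Rnu1a1, a gene of the spliceosomal U1 RNA.

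The strongest of the 43 lay 9817 bp upstream of Dync1h1 and 1123 bp from the non-coding gene B930059L03Rik (chr12:110591485-110591776, signal 290, 143 in replicate 1 and 145 in replicate 2). It held a palindrome with 1 base changed. The next lay 227420 bp from Tprg and 242 bp from the non-coding A230028O05Rik (chr16:25059211-25059567, 207, 104 and 105). Zbtb16, the zinc finger factor PLZF, held 3 intronic peaks at 95660, 98318 and 112222 bp from its start (chromosome 9). Their signals were 179, 164 and 170.0, with 98.9, 78.8 and 89.6 in replicate 1 and 79.1, 87.1 and 86.7 in replicate 2.

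Other distal peaks, beyond 10 kb, were nearest to E030018B13Rik (signal 169), Ets2 (146), an ETS factor, Nufip1 (142), Atf7ip (138), Cblb (123), a ubiquitin ligase of immune signalling, Irf2bp2 (113 and 94.3) and Klf6 (113). The nearest gene of a distal peak need not be the one it serves.

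Immediate early genes, transcribed soon after a stimulus, were nearest to 4 strong peaks, all beyond 1 kb. The peaks were nearest to 4 of the 24 genes on the list (16.7%), against 1.33% of all coding genes. Of the 24, 19 were nearest to some optimal peak (79.2%), against 19.5% of all coding genes. The list was drawn up with earlier results of these data known. Per1, a component of the circadian clock, had an intronic peak 1863 bp from its start (chr11:69096916-69097192) with a signal of 177, 84.8 in replicate 1 and 82.9 in replicate 2. Klf6 had a peak at 19868 bp (113, 52.4 in replicate 1 and 59.9 in replicate 2), Fos at 58833 bp (86.9, 45 and 41.1) and Klf4 at 396988 bp (82.1, 34.9 and 49.7). None of the 4 held the palindrome.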

How the data were processed

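The deposited files are 5 peak lists on mm10 in narrowPeak layout, namely 1 list per replicate, 1 of pooled reads, and the conservative and optimal sets that passed the irreproducible discovery rate (IDR). Per the readme texts deposited by the authors, replicate 1 was called from its alignment and 1 further file and replicate 2 from its alignment and 2 further files. Peak caller and aligner: not given in the sources used here, nor is any version of them. The deposited signal is the authors' value per peak, and its scale differs from list to list. The deposited score of the IDR sets is a scaled value of up to 1000, and the deposited summit is an offset in bp, a unit other than signal or score. Replicate and pooled lists each hold 300000 peaks, so their length does not show depth.

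Off the named chromosomes, 4 optimal peaks were left out. Starts for distances came from protein-coding transcripts of GENCODE M21, and sequence from the RefSeq GRCm38 assembly, which matches mm10. The 21755 coding starts searched for motifs were 1 per gene record, a different definition. With 1 start per gene, 247 of the 300 peaks (82.3%) lay at promoters. Promoter means a summit within 1 kb of a coding start, distal over 10 kb. Motifs were exact words searched on both strands in 201-base windows (Python 3.11.15, pysam 0.24.0, samtools 1.23.1, scipy 1.17.1) and tested on simulated data. Summit and flank were compared by a two-sided exact McNemar test, adjusted by Benjamini-Hochberg over 14 motifs with a threshold of 0.05; its log2 ratios have 0.5 added to each count. Intervals are Clopper-Pearson. A peak took the strongest replicate peak with its summit inside. Signal, width and replicate values are tied to the choice of peaks and got no test. Genes were named by rule: the nearest gene of the 30 strongest peaks, up to 12 distal peaks, the strongest 3 of each gene list, and 5 peaks on each side of the limit; others were named after their values were seen. The peaks, gene lists and motifs were chosen with earlier results of these data known. A few peaks within this rule are not reported here.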

Additional observations from a re-analysis of the deposited data

How the results depend on the processing

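The results were recomputed with peaks ranked by each replicate list alone, with the conservative set, with 150 or 600 peaks, with overlapping peaks counted once, and with other distances, windows, flanks and spellings. Of the 300 peaks, 208 stayed among the first 300 by replicate 1 alone and 228 by replicate 2 alone, where overlapping peaks can share a value. Shares depended on how many peaks were taken. For 150 and then 600 peaks they were 90% and 72.7% at promoters, 82.7% and 25.5% narrow, and 54% and 25.7% with the palindrome core. The 16 gene families were 22.7% of 150 peaks. The 6-base spelling TCGCGA raised the palindrome share to 57% and the 6-base ETS spelling CGGAAG to 25.7%. Within 50 bp the YY1 share was 3%. Motifs called, 5 in the report, numbered 10 within 150 bp, of which CEBP was called lower at summits (-0.84), and 3 with flanks 300 bp away.

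ETS lost its call with flanks 300 bp away (log2 ratio 0.87, adjusted exact p = 0.438) and YY1 within 50 bp (2.66, 0.0602). NRF1 gained one with 600 peaks (2.32), within 150 bp (2.32) and with the flank on the other side (4.09). By replicate 1 alone AP-1 was called lower at summits (-1.90, adjusted exact p = 0.00951), and by replicate 2 alone the E-box was called higher (1.67, 0.0394). Uncalled ratios changed sign for AP-1 with 600 peaks (0.68), for ZNF143 and THAP11 by replicate 1 alone (-1.58, against 0 by replicate 2 alone) and with 600 peaks (-0.85), for TEAD with flanks 2000 bp away (-0.44) and for MEF2 with the other flank (-0.74). In these cases the cause was not tested. Of 264 alternative values, 233 counted as unchanged. For single motifs this meant the same direction and side of the threshold, and for shares a value within the interval. Membership, the number of motifs called and replicate medians had wider limits of their own. The 208 and 228 peaks kept by 1 replicate alone thus count as unchanged too. No paired analysis was possible because the 2 libraries form 1 group. Unknown depth and a shared donor label limit what the replicates show.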

Other observations

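A minority of the strong peaks beyond 1 kb of a coding start held another sequence. Inverted half-sites spelled GNACA, 3 bases of any kind, then TGTNC, the arrangement that the glucocorticoid receptor and related steroid receptors are known to bind, were searched after the data were seen. The pattern is the same on both strands. It lay within 100 bp of the summit at 13 of the 43 strong peaks beyond 1 kb (30.2%, exact interval 17.2 to 46.1) and in 0 of their flanks. It was at 1 of the 257 strong promoter peaks, at 149 of the 4738 other optimal peaks beyond 1 kb (3.14%, interval 2.67 to 3.68), where 17 flanks held it, and at 12 of the 2695 other promoter peaks. As a pattern chosen on these peaks it was given no test.

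The 13 peaks were nearest to 11 genes: Zbtb16 with 3 peaks, and Tprg, Per1, E030018B13Rik, Nufip1, Cblb, Irf2bp2, Slc30a5, Ddit4, Tsc22d3 and Cryaa with 1 each. Per1, Zbtb16, Ddit4 and Tsc22d3 are known as genes induced by glucocorticoids, named here after their values were seen. Genes nearest to strong peaks without the pattern, among them Klf9 and Pdk4, were not sorted in this way. The names therefore show no link between the pattern and a class of genes. Tsc22d3, which encodes the protein GILZ, had a peak 37234 bp from its start with a signal of 86.4, 33.4 in replicate 1 and 52.1 in replicate 2. Ddit4, an inhibitor of mTORC1, had one at 22434 bp with 89.4, 41.1 in replicate 1 and 51.4 in replicate 2. The centre of the pair lay a median of 12 bp from the summit and at most 46 bp. The 4 strongest are shown on the plus strand of mm10 with the half-sites in capitals.
Tprg, chr16:25059384-25059413: gctccaggGAACAgaaTGTACttggcagag
Zbtb16, chr9:48740265-48740294: cacacactGTACAtacTGTACccacaagtc
Per1, chr11:69097069-69097098: agccaagaGAACAcgaTGTTCcctagtgcg
Zbtb16, chr9:48723696-48723725: ataaggaaGTACAgagTGTACcaaaacagc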
